A study of Mus musculus with 207 samples.

Results

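Cecal RNA of incipient Collaborative Cross (CC) mice was hybridized to Illumina BeadChips, 1 array per mouse, and 12 CC lines were set apart by a low signal of the probe for ND4, a mitochondrially encoded subunit of respiratory complex I. The first number of each mouse's label was read as its line. Of 113 lines, 93 had 2 or more mice. A line was called a low ND4 line when each of its mice lay below log2 12 on the ND4 probe and a high ND4 line when each lay at 12 or more, which gave 12 low lines (24 mice, 12 females and 12 males) and 77 high lines (155 mice, 77 females, 76 males and 2 of unclear sex). Another 4 lines had mice on both sides of the level and 20 lines had 1 mouse, and these entered no test. Levels are log2 intensities, a line's level is the mean of its mice, and differences are low minus high ND4 lines.

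No treatment of these lines is named in the labels or the methods, though members of the breeding population went through tests of behavior and physiology. All lines descended from the same 8 founder strains (the wild-derived CAST/EiJ, PWK/PhJ and WSB/EiJ, and the classical 129S1/SvImJ, A/J, C57BL/6J, NZO/HILtJ and NOD/LtJ). The mice were adults whose exact age was not given in the sources used here. They came from generations that were not yet fully inbred, and each line was caged apart, so line, cage and genotype cannot be told apart. Of the low lines, 7 had animal numbers under 100 and 5 had higher numbers, against 44 and 33 of the high lines. RNA came from the pellet of cells released from the cecum, in which the marker list of absorptive colonocytes averaged 11.90 to 12.60 over the low lines and 11.11 to 12.64 over the high lines.

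The mitochondrial genome is inherited through the mother. It encodes subunits of complexes I, III and IV and of the ATP synthase, which work together with many nuclear-encoded subunits. Its genes are transcribed as long precursors from both strands and are then cut into separate RNAs, with ND6 the protein gene on the light strand. CC founders include classical and wild-derived strains, whose mitochondrial sequences differ. A sequence variant beneath a probe can lower its signal at an unchanged amount of RNA. The study's own analysis removed probes over founder variants, but the deposited table still holds probes of both kinds and which they are is not known here, so less transcript and weaker probe binding cannot be told apart for any probe below.

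The lines were selected on ND4, so its values are given as a description with no test. ND4 ranged over mice from 6.89 to 11.79 with a median of 10.46 in low lines, against 12.02 to 16.51 with a median of 14.70 in high lines. The mean over lines was 10.15 ± 1.12 (SD, n = 12) in low lines and 14.67 ± 0.53 (SD, n = 77) in high lines. Lines 2227 (7.56 and 8.06) and 2020 (6.89 and 9.86) had the lowest line means. Just inside the level was line 4533, with mice at 11.51 and 11.79. Just outside it was high line 5156, with a line mean of 12.62 and its lower mouse at 12.02. Mice of a low line differed by 0.05 to 2.97, with a median of 0.62, and mice of a high line by 0.01 to 1.78, with a median of 0.66. Array medians, on the linear scale, were 53.1 to 90.1 in low lines and 56.3 to 103.7 in high lines. The annotation gave 1 probe to ND4, and the sequence it targets was not used here.

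**Figure D1:**
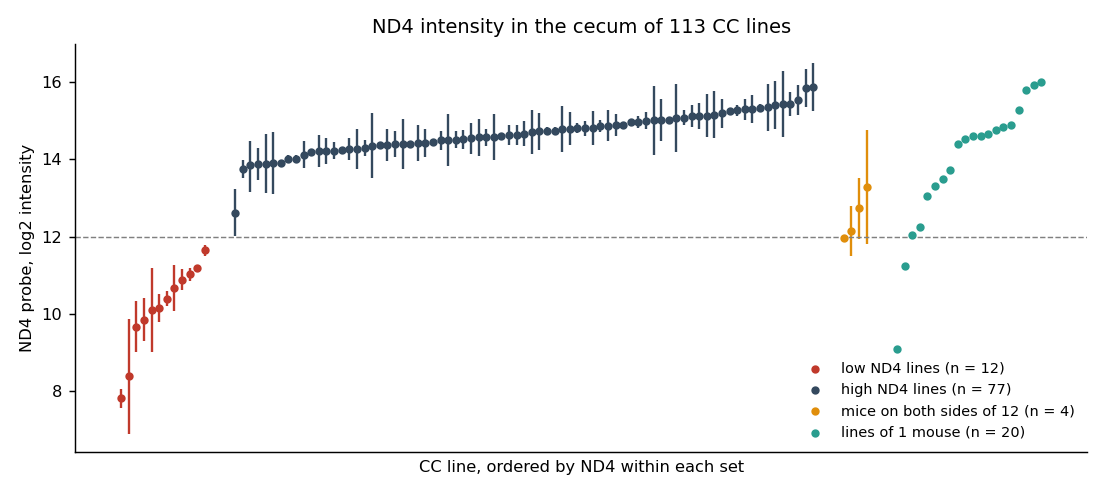
ND4 probe intensity (log2, y axis) of each of 113 CC lines, ordered within each set (x axis). Points are line means, vertical lines span the mice of a line, and the dashed line marks log2 12. The 12 low ND4 lines lie between 7.81 and 11.65, and the 77 high ND4 lines between 12.62 and 15.87.

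Outside ND4, 13 of 45280 probes differed between low and high ND4 lines (limma on line means, Benjamini-Hochberg adjusted p under 0.05). Of these, 12 were lower in low lines, which is 0.0265% of the probes tested, and 1 was higher, which is 0.00221%. The lower probes were those of the mitochondrial genes ND1, ATP6 and ND6, those of the nuclear genes Slc35d2, Nrbp2, Ffar3 and Acin1, and 5 probes to which the platform annotation gave no gene. The higher probe was 1 of those for Cul4a. Before adjustment, 1774 probes (3.92%) were lower and 112 (0.247%) higher at p under 0.05, and the median difference over all probes was -0.04. This split moved with the lines and the scaling. It was 264 lower and 196 higher without low line 2227, 1 of whose 2 arrays held intensities below 0, and 3958 lower and 110 higher without low line 1288. With all arrays that held intensities below 0 left out, it was 598 lower and 229 higher. It was 556 lower and 649 higher after quantile normalization, and 256 lower and 245 higher with the 5th percentile of each array subtracted.

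The array carried probes for 8 mitochondrially encoded genes, and of the 7 other than ND4, 3 were lower in low ND4 lines, none was higher and 4 did not pass. The decrease was not shared evenly along the mitochondrial genome. In genome order, the differences were -2.27 for ND1, 0.07 for COX2, -1.64 for ATP6, -0.80 for ND4L, 0.15 for ND5, -1.001 for ND6 and -0.16 for CYTB.

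ND1, a complex I subunit encoded next to the ribosomal RNAs, had the clearest decrease. It ranged over lines from 10.49 to 12.88 with a median of 11.77 in low lines, against 10.98 to 15.42 with a median of 13.98 in high lines. All 12 low lines lay below the median of the high lines, and all 24 of their mice below the median of high-line mice, yet 4 high lines lay at or below the highest low line. The difference of -2.27 (SE 0.22, 95% confidence interval -2.71 to -1.83) is a 4.82-fold lower intensity (limma adjusted p = 1.1e-12).

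ATP6, a subunit of the ATP synthase proton channel, ranged over lines from 10.37 to 13.37 with a median of 11.65 in low lines, against 9.47 to 15.46 with a median of 13.60 in high lines. The groups overlapped widely, since 32 high lines lay at or below the highest low line, 1288, and no low line lay below every high line. Its difference was -1.64 (SE 0.35, 95% confidence interval -2.32 to -0.95, limma adjusted p = 0.027). It lost its call when any 1 of 7 low lines was left out. The adjusted p was then 0.056 without line 125, 0.12 without line 176, 0.072 without line 2020, 0.077 without line 2227, 0.097 without line 2662, 0.19 without line 3041 and 0.12 without line 5019. Over all 12 such fits the difference stayed between -1.78 and -1.51.

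ND6, the complex I subunit read from the light strand, was near background in low lines. Over lines it ranged from 6.43 to 6.98 with a median of 6.65 in low lines, against 6.31 to 8.72 with a median of 7.67 in high lines, where background was set at log2 6.33. All 12 low lines lay below the median of the high lines, and 9 high lines lay at or below the highest low line. The difference was -1.001 (SE 0.17, limma adjusted p = 0.00031).

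COX2, a subunit of complex IV, and CYTB, the mitochondrially encoded subunit of complex III, did not pass the test. COX2 had a range over lines of 12.48 to 14.05 in low lines, against 10.40 to 14.73 in high lines, and 6 of 12 low lines lay above the median of the high lines. Its difference had a 95% confidence interval of -0.43 to 0.57 (limma adjusted p = 0.99). CYTB had a range of 13.88 to 15.96 in low lines, against 13.83 to 16.28 in high lines, with an interval of -0.50 to 0.18 for its difference (limma adjusted p = 0.99). For both probes the low lines lay inside the range of the high lines.

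ND4L and ND5, complex I subunits encoded on either side of ND4, did not pass either. ND4L ranged over lines from 7.03 to 11.45 with a median of 9.39 in low lines, against 8.39 to 12.20 with a median of 10.36 in high lines. Only lines 2020 and 2227, at 7.03 and 7.25, lay below every high line, and 3 low lines lay above the median of the high lines. The difference of -0.80 (SE 0.27) had a limma adjusted p of 0.99. It was -1.34 (SE 0.34) in lines with animal numbers under 100 and -0.05 (SE 0.42) in lines with higher numbers, and -1.09 (SE 0.38) in females and -0.49 (SE 0.36) in males. Neither the difference between the ranges of animal numbers nor that between the sexes passed (limma adjusted p = 0.84 and 0.90). ND5 was dim, with a median of 6.94 in low lines and 6.82 in high lines. Lines 1288, 2227 and 2020 stood above the other low lines at 8.78, 8.43 and 8.38, and the rest reached at most 7.46. In each of these lines the high ND5 value was mainly that of 1 mouse. It was the female in line 2227 (10.36, against 6.50 in the male) and in line 1288 (10.04, against 7.52). In line 2020 it was the male (9.965, against 6.80 in the female). The array of the line 2227 female held values below 0, while no array of lines 1288 and 2020 did.

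**Figure D2:**
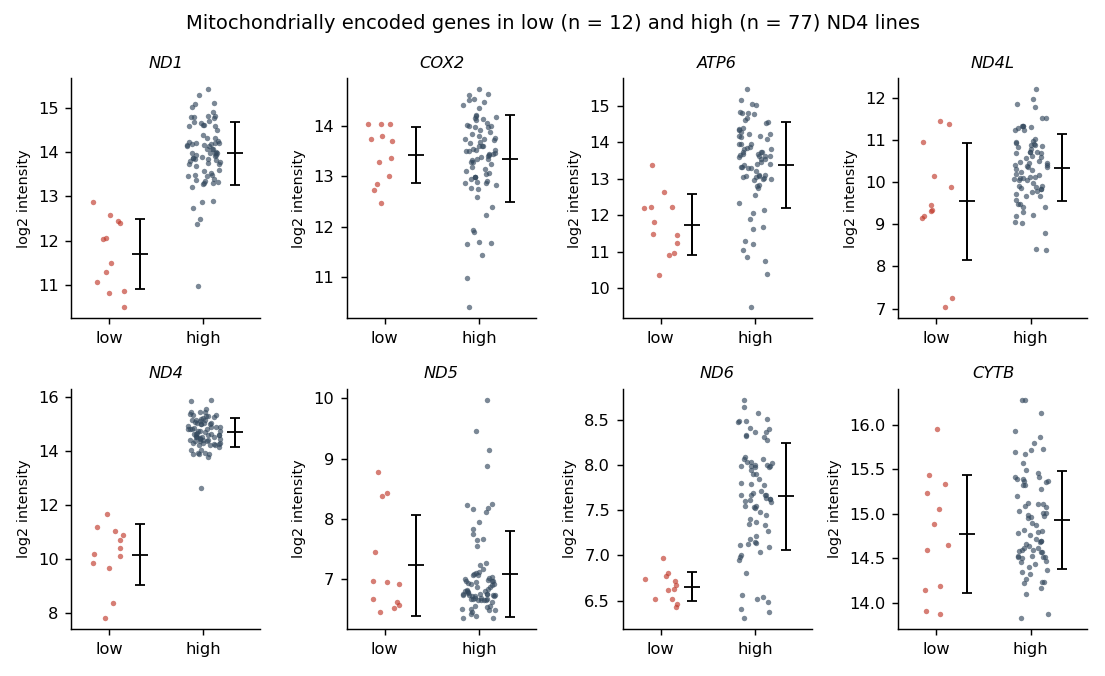
Line means (log2 intensity, y axis) of the 8 mitochondrially encoded genes on the array in the 12 low and 77 high ND4 lines. Each point is a line, and bars show the mean ± SD over lines. ND4, on which the lines were selected, has no overlap; ND1, ATP6 and ND6 were lower in low lines, and COX2, CYTB and ND5 overlapped throughout.

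Within the low lines, mitochondrial probes differed in how closely they followed ND4. Over the 12 low lines, Spearman's rho with ND4 was 0.90 for ND1, 0.73 for ND6, 0.71 for ND4L, 0.65 for ATP6, 0.51 for COX2, 0.08 for CYTB and -0.26 for ND5. Over the 77 high lines it was 0.83 for ND1, 0.43 for ND6, 0.14 for ND4L, 0.72 for ATP6, 0.64 for COX2, 0.77 for CYTB and 0.57 for ND5. These are descriptions across lines whose probes were read on the same arrays, so array quality is shared by both members of each pair. In low lines the ranks of ND1 thus followed those of ND4 more closely than the ranks of CYTB did.

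The 5 lower probes without a gene name included the probe with the smallest p of all. Probe ILMN_2483935 ranged over lines from 6.74 to 9.52 with a median of 8.09 in low lines, against 7.96 to 14.84 with a median of 13.63 in high lines. Only high line 5156 lay at or below the highest low line. The difference was -5.26 (SE 0.32, limma adjusted p = 7.3e-24), a 38.3-fold lower intensity. Probe ILMN_2551741 ranged from 6.26 to 8.43 in low lines, against 6.43 to 12.75 in high lines, with 10 high lines at or below the highest low line and a difference of -4.09 (SE 0.47). Probes ILMN_2436634, ILMN_2428846 and ILMN_2470277 differed by -2.30 (SE 0.28), -1.15 (SE 0.15) and -0.93 (SE 0.18). ILMN_2470277 lost its call without low line 3041 (-0.83, adjusted p = 0.0501).

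Across the 77 high lines these unnamed probes followed named mitochondrial probes. Spearman's rho was 0.98 between ILMN_2436634 and ATP6, 0.97 between ILMN_2470277 and CYTB, 0.89 between ILMN_2428846 and ND4, 0.91 between ILMN_2551741 and ATP6, and 0.80 between ILMN_2483935 and ATP6. The last of these followed the unnamed ILMN_2551741 more closely (0.90). Most of these nearest matches changed in the 12 low lines. There ILMN_2436634 was nearest to ND1 (0.99, against 0.81 with ATP6) and ILMN_2470277 to COX2 (0.94, against 0.85 with CYTB). ILMN_2428846 was nearest to ATP6 (0.93, against 0.78 with ND4) and ILMN_2483935 to ND4 (0.92, against 0.62 with ATP6). ILMN_2551741 stayed nearest to ATP6 (0.75). Probes that followed each other across the high lines did not always share a difference. ILMN_2470277 was lower in low lines while CYTB, its nearest match in the high lines, differed by -0.16 and did not pass. What these probes target was not looked up here, so whether any of them reads ND4 is not known. For such a probe the difference would repeat the selection.

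The nuclear genes of the respiratory chain gave no call. Over 7 lists that hold the nuclear subunits of complexes I to IV and the ATP synthase, cytochrome c and the assembly factors, 126 genes were measured by their brightest probe and 0 passed (limma, smallest adjusted p 0.99). At an unadjusted p under 0.05, 6 genes (4.76%) were lower and 1 (0.794%) was higher, against 3.92% and 0.247% of all probes. The median difference over the 117 genes above background was -0.01, against -0.04 over all probes, and for 102 of them the 95% confidence interval lay within 0.5 log2 units of 0 on both sides.

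Complex I itself, the complex that holds ND4, showed no call among 34 nuclear subunits, of which none reached an unadjusted p under 0.05. The median difference of the 32 above background was -0.01, and the largest was that of Ndufb2, an accessory subunit, at -0.39 (95% confidence interval -1.03 to 0.24, limma adjusted p = 0.99). None of 18 complex I assembly genes passed, with the largest difference in Ndufaf2, an assembly factor (0.73, 95% confidence interval -0.13 to 1.58, limma adjusted p = 0.99). The interval for Ndufaf2 was wide because its levels varied among lines of both groups, with an SD of 1.19 in low lines and 1.45 in high lines.

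In complex II, encoded in the nucleus alone, 0 of 8 genes passed, with Sdhaf3, an assembly factor, at -0.52 (95% confidence interval -1.08 to 0.04). None of 14 complex III and cytochrome c genes passed, and Uqcrc1, a core subunit, had the largest difference at 0.20. Complex IV had 0 of 14 nuclear subunits past the threshold and 4 (1 of them below background) lower at an unadjusted p under 0.05, where 3.92% of all probes were lower. The largest difference was that of Cox7a2, a small subunit, at -0.60 (95% confidence interval -1.10 to -0.10, limma adjusted p = 0.99). Among 18 complex IV assembly genes the largest difference was that of Cox19, at -0.19, and among 20 ATP synthase genes that of Atp5e, at -0.38.

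Genes that maintain, read and process mitochondrial DNA and RNA also gave no call. None passed of 17 genes of mitochondrial DNA maintenance and transcription (Twnk, the replicative helicase, had the largest difference at -0.18), of 15 genes of mitochondrial RNA processing (Trmt10c, a subunit of mitochondrial RNase P, 0.23), of 18 mitochondrial tRNA synthetases (Iars2, 0.22) or of 76 mitochondrial ribosomal proteins (Mrpl50, 0.33). Lars2, the leucyl-tRNA synthetase of mitochondria, was at 8.17 ± 0.95 in low lines and 8.15 ± 0.75 in high lines (SD, n = 12 and 77), with an interval of -0.46 to 0.49 for the difference. The median difference of each of these 4 lists lay between -0.01 and 0.05.

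Further lists that could be read beside a change in mitochondrial transcripts were likewise without a call. Of 12 regulators of mitochondrial biogenesis, 18 genes of the mitochondrial stress response, 17 antioxidant genes, 18 genes of the tricarboxylic acid cycle, 13 glycolytic genes and 25 genes of mitochondrial import and cristae, 0 passed (limma). Their largest differences were those of Sirt3, a mitochondrial deacetylase (-0.14), Hspe1, a mitochondrial chaperonin (-0.21), Nqo1, a quinone reductase (0.18), Mdh2, mitochondrial malate dehydrogenase (0.13), Pkm, pyruvate kinase (-0.63), and Tomm70a, an outer membrane import receptor (-0.16). At an unadjusted p under 0.05 the counts in these 6 lists were 2 lower, 1 each among stress response and glycolytic genes, and 0 higher, where 3.92% of all probes were lower and 0.247% higher.

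**Figure D3:**
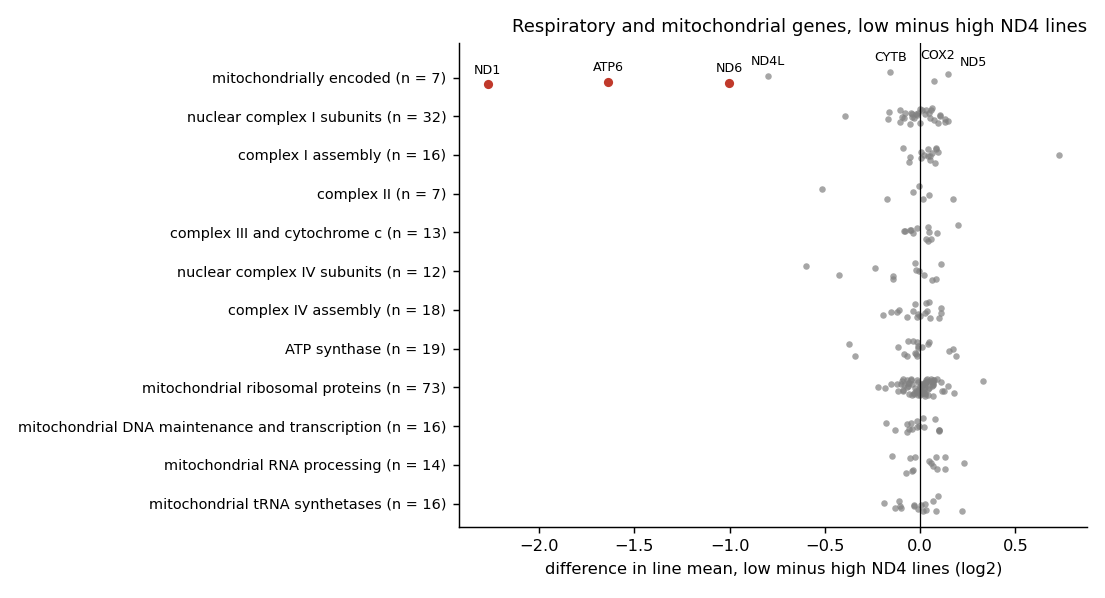
Differences in line mean between low and high ND4 lines (log2, x axis) of genes above background in 12 lists (y axis, with the number of genes). Each point is the brightest probe of a gene, red marks a limma adjusted p under 0.05, and ND4 is left out. The red points are ND1, ATP6 and ND6, while every nuclear gene in the plot lies between -0.60 and 0.73.

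Markers of cell types in the cecal wall gave no call. Over 15 lists of epithelial, immune, stromal and other cells, no gene passed, and the levels of each list overlapped between the groups. Goblet cell markers averaged 10.73 to 12.08 over low lines and 10.36 to 12.19 over high lines, and smooth muscle markers 10.35 to 11.35 over low lines and 10.20 to 11.72 over high lines. The most negative difference of a cell marker above background was -0.45, in Retnlb, a goblet cell product (95% confidence interval -1.11 to 0.21), and the most positive 0.26, in Synm, an intermediate filament protein of muscle (95% confidence interval -0.22 to 0.75). In RNA of the released cells, fewer cells of a type in the cecum, fewer of them released and less RNA per cell cannot be told apart. Among 10 MHC class II genes, H2-Aa had the largest difference at -0.58 (95% confidence interval -1.62 to 0.46), again without a call.

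Of the called nuclear genes, the smallest p was that of Slc35d2 on chromosome 13, a transporter that carries nucleotide sugars into the Golgi. It ranged over lines from 6.004 to 7.40 with a median of 6.67 in low lines, against 6.91 to 8.00 with a median of 7.50 in high lines. Of the low lines, 11 lay below every high line, and the exception was line 2020, whose mice were at 7.15 and 7.66. The difference was -0.82 (SE 0.07, 95% confidence interval -0.96 to -0.67), a 1.76-fold lower intensity (limma adjusted p = 2.4e-14). It was measured by 1 probe.

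Nrbp2 on chromosome 15, which encodes a pseudokinase, ranged over lines from 7.005 to 7.81 with a median of 7.63 in low lines, against 7.64 to 9.43 with a median of 8.39 in high lines. Of the low lines, 7 lay below every high line, and 2 high lines lay at or below the highest low line. The difference was -0.85 (SE 0.11, limma adjusted p = 2.0e-08), also from 1 probe.

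Cul4a on chromosome 8, the scaffold of a ubiquitin ligase, was the only gene higher in low ND4 lines. The probe ranged over lines from 8.69 to 9.24 with a median of 9.01 in low lines, against 7.87 to 8.92 with a median of 8.49 in high lines, and 8 low lines lay above every high line. The difference was 0.51 (SE 0.07, 95% confidence interval 0.38 to 0.65, limma adjusted p = 1.9e-07). The other 3 probes of Cul4a did not follow it. Their differences lay between -0.08 and 0.00, and 2 of them were at or below background.

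Ffar3 on chromosome 7, a receptor for the short-chain fatty acids that cecal bacteria produce, ranged over lines from 6.06 to 6.50 with a median of 6.37 in low lines, against 5.72 to 7.91 with a median of 7.07 in high lines. Thus 24 of 24 mice of low lines lay below the median of high-line mice, at or near the background of 6.33. The difference was -0.69 (SE 0.12, limma adjusted p = 0.00062), and the other, dimmer probe of Ffar3 differed by 0.02 (95% confidence interval -0.15 to 0.19). The call of the brighter probe was lost in females (-0.72, adjusted p = 0.077), in males (-0.65, adjusted p = 0.14) and in the lines with animal numbers under 100 (-0.70, adjusted p = 0.22) and higher (-0.69, adjusted p of 1).

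Acin1 on chromosome 14, which encodes a nuclear protein bound to the exon junction complex, ranged over lines from 5.05 to 6.35 with a median of 6.10 in low lines, against 5.07 to 7.11 with a median of 6.59 in high lines. The difference was -0.51 (SE 0.09, limma adjusted p = 0.0013). The other 2 Acin1 probes differed by -0.01 (95% confidence interval -0.23 to 0.22) and 0.02 (-0.07 to 0.10). Across the 77 high lines the called probes of Ffar3 and Acin1 followed each other (Spearman's rho 0.86), and the Acin1 probe followed ATP6 (0.72), as a description of probes read on shared arrays. In Ffar3, 11 high lines lay at or below the highest low line, and in Acin1 14. Lines 1519, 3011, 1639, 2558, 2595, 3078, 3087, 3515, 3612 and 5513 were among both. In these same high lines other than 1519 and 3011, ATP6 was at 9.47 to 12.07, ND6 at 6.31 to 7.04 and ILMN_2551741 at 6.765 to 7.63. Their ND4 was at 13.90 to 15.19, and their COX2, at 10.40 to 12.24, lay below every low line. Line 1519 differed from them, with ATP6 at 11.91 but ND6 at 8.49, ILMN_2551741 at 9.23 and COX2 at 13.74. Line 3011, with 1 array that held values below 0, had ATP6 at 12.34, ND6 at 6.38, ILMN_2551741 at 6.43 and COX2 at 11.89. What sets these lines apart was not tested.

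Gabpb1, a subunit of the nuclear respiratory factor GABP, was singled out after its values were seen, since 1 of its 4 probes came near the threshold. That probe was at 6.33 to 7.40 over low lines and 6.30 to 7.30 over high lines, with a difference of 0.32 (SE 0.07, limma adjusted p = 0.077). With single mice and the line as a random block it passed (adjusted p = 0.028). The other 3 probes of the gene differed by -0.05 to 0.02.

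**Figure D4:**
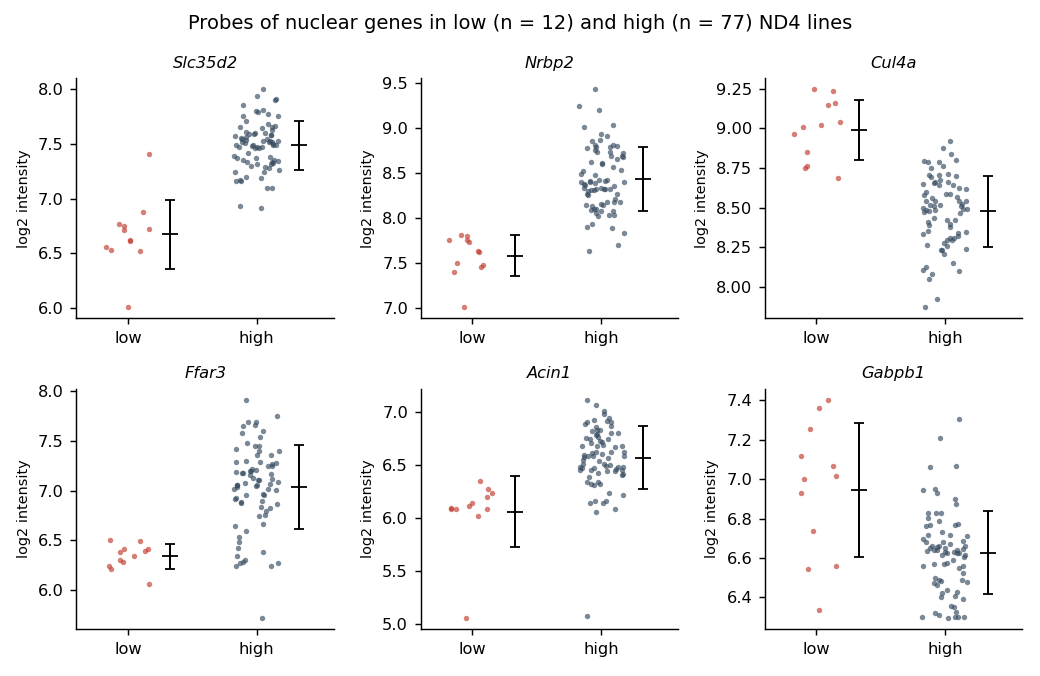
Line means (log2 intensity, y axis) of the called probes of 5 nuclear genes and of the Gabpb1 probe nearest to the threshold, in the 12 low and 77 high ND4 lines. Each point is a line, and bars show the mean ± SD over lines. For Slc35d2, 11 of 12 low lines lie below every high line, and for Cul4a 8 of 12 lie above every high line.

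The differences were then set within the sexes and within the ranges of animal numbers. In females and in males, ND1 differed by -2.29 and -2.27, ILMN_2483935 by -5.12 and -5.39, Slc35d2 by -0.87 and -0.76, and Cul4a by 0.51 and 0.53. No probe had a difference that itself differed between the sexes (limma, 0 of 45280 probes, 2241 at an unadjusted p under 0.05). In lines with animal numbers under 100 and in lines with higher numbers, ND1 differed by -2.64 and -1.76, ILMN_2483935 by -5.65 and -4.71, Slc35d2 by -0.74 and -0.91, and Cul4a by 0.52 and 0.51. No probe had a difference that itself differed between these ranges (limma, 0 of 45280 probes, 2104 at an unadjusted p under 0.05). ND1 lost its call in the 5 low lines with higher animal numbers, where its adjusted p was 0.58, as did Nrbp2 (-0.76, adjusted p = 0.58), ILMN_2436634 and ILMN_2428846. Ffar3 and ATP6 lost their calls in both sexes and in both ranges. ND6 lost its call in both ranges and in females, Acin1 in both ranges and in males, and ILMN_2470277 in the higher range and in males.

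The lines outside the comparison were read for the same probes, as a description. Lines 381, 4285 and 1635, with mice on both sides of the level, had ND1 at 9.39, 9.66 and 10.50 and ATP6 at 8.37, 7.86 and 8.88. Their ATP6 values lay below those of all 12 low lines. Their Slc35d2 values of 7.64, 7.41 and 7.70 lay in the range of the high lines, as did their Cul4a values of 8.52, 8.62 and 8.70. Among the low lines, line 2020 was the one with both Slc35d2 and Cul4a inside the range of the high lines. The fourth line, 5515, had ND1 at 14.58 and ATP6 at 14.42, and its mouse below the level came from an array with values below 0.

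Among the lines of 1 mouse, both mice with ND4 below 12 (5546 at 9.08 and 699 at 11.24) had Slc35d2 at 6.58 and 6.70, under the lowest high line, and Cul4a at 8.98 and 9.38, above the highest high line. The other 18 single mice had Slc35d2 at 6.78 to 7.87 and Cul4a at 7.67 to 8.98. Among them, 2459, 157 and 1009 also had Slc35d2 under the lowest high line (6.78, 6.80 and 6.89). Mouse 134 also had Cul4a above the highest high line (8.98). Of the 18, 3 with ND4 just above the level (1009, 1549 and 157, at 12.04 to 13.05) had ATP6 at 8.67, 7.16 and 8.26, below every low line.

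**Figure D5:**
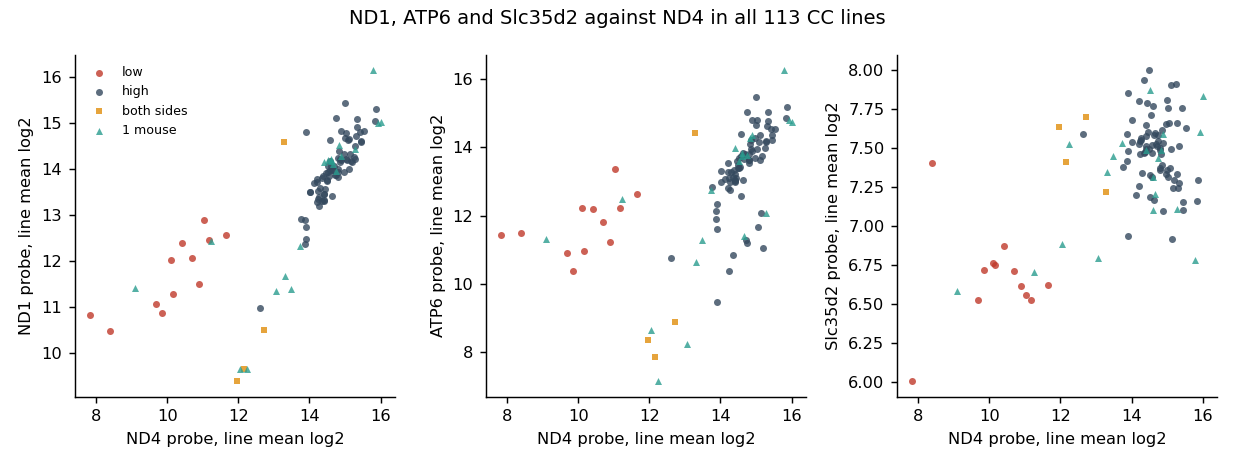
Line means (log2 intensity) of ND1, ATP6 and Slc35d2 (y axes) against ND4 (x axes) in 113 CC lines, with low, high and both-sides lines and lines of 1 mouse marked. Lines near ND4 of 12 with ATP6 under 9 fall below the low ND4 lines, and 11 of the 12 low lines hold Slc35d2 values below every high line.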

How the data were processed

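Intensities of 45281 probes in the cecum of 207 mice were taken from the linear values the authors deposited. Per the methods and the submitters' notes, the authors scanned Illumina Mouse WG-6 v2 BeadChips and used BeadStudio 3.0.19 for rank-invariant normalization, and background was not subtracted. Intensities below 16 were set to 16 (0.761% of values) and log2 was taken. On 8 arrays some intensities lay below 0. The number of arrays limits the precision, and p-values measure the spread between lines, which may in part be technical.

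Platform annotation gave 1 gene to 34885 probes, several to 18 and none to 10378. Symbols and chromosomes came from RefSeq (GRCm38.p6), which matched 34807 of these probes. A probe was above background when its mean exceeded log2 6.33, a level that 95% of 1545 probes of taste, vomeronasal and olfactory receptor genes did not exceed (20325 probes passed). A gene was represented by its probe with the highest mean.

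Line means were compared with limma 3.58.1 (R 4.3.3; lmFit and eBayes), with Benjamini-Hochberg adjustment over 45280 probes at 0.05. The limma fit was tested on the line means with shuffled groups and known differences added to some probes. The members and gene lists were chosen with earlier results of these data known. Genes were named by a rule: all mitochondrially encoded genes, list genes past the threshold, otherwise the list member above background with the greatest difference, the 20 other named genes with the smallest adjusted p past the threshold, and Lars2. Alternatives were other normalizations (quantile; 5th percentile subtracted), a floor of 32, probes above background, series of animal numbers, sexes, single mice with line as a random block, leaving out arrays or lines, and each low line in turn. Leaving out high line 5156 was added after seeing the data.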

Additional observations from a re-analysis of the deposited data

Results flagged for a closer look

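Within the 7 and 5 low ND4 lines of each range of animal numbers and the 4 lines with mice on both sides of the level, single lines far from the others of their set were looked for in 19 probes each. Of 57 sets, 8 held such a line. Chance gives about 1 in 20 for a single set. The probes share lines and arrays, so the sets are not independent and no excess can be read from this count. Among low lines, 2227 had Acin1 at 5.05, against 6.02 to 6.23 in the other 6 lines, and 1 of its 2 arrays held values below 0. Line 5019 had COX2 at 12.74, against 13.71 to 14.05 in the other 4 lines, and the unnamed probe ILMN_2428846 at 13.57, against 14.56 to 14.78. The remaining 5 all concern line 5515, the line on both sides of the level whose female array held values below 0. It had ATP6 at 14.42 (7.86 to 8.88 in the other 3 lines), ND5 at 9.72 (6.43 to 6.48), ILMN_2483935 at 13.98 (6.93 to 7.74), ILMN_2551741 at 12.41 (7.02 to 7.81) and Cul4a at 7.43 (8.52 to 8.70). The part of array quality in these values was not tested.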

How the results depend on the processing

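The number of probes that differed between low and high ND4 lines was 9 to 18 over 12 alternative settings, 13 without high line 5156 (added after seeing the data), 11 to 15 when each low line was left out in turn and 4 (3 lower and 1 higher) in the 5 low and 33 high lines with high animal numbers, where fewer lines were compared. All 13 called probes kept their direction throughout. Of the 13, ILMN_2483935, ILMN_2551741, Slc35d2 and Cul4a passed in all 26 alternatives. Apart from single low lines left out, calls were lost in subsets of lines or mice: in the lines with low animal numbers by ND6, Ffar3, Acin1 and ATP6, in those with high numbers by 9 probes, in females by ND6, Ffar3 and ATP6, and in males by Ffar3, Acin1, ILMN_2470277 and ATP6. Beyond the fewer samples, the cause was not tested.

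Probes that were not called turned direction as follows, each without passing. In lines with low animal numbers the differences were -0.0115 for COX2, -0.0938 for Hba-a1, -0.15 for Adipoq and -0.15 for Lars2, and in those with high numbers 0.13 for CYTB, 0.38 for Ndufb2, -0.0130 for Uqcrc1, -0.00224 for Nqo1 and 0.0101 for Tomm70a. In females they were -0.0699 for COX2, 0.0142 for Dclk1, -0.33 for Hba-a1 and -0.0984 for Adipoq, and for Lars2 they were -0.000435 in males and -0.0203 with the 5th percentile subtracted. Leaving out single low lines moved Adipoq between -0.0683 and 0.27 and Lars2 between -0.0846 and 0.14. No probe had a difference that itself differed by animal number or by sex (0 in limma under each of 6 settings). ND6, Ffar3 and Acin1 in low lines lay near background, which limits what a lower value can show. No paired analysis was possible because the labels number the animals and give no replicate number that ties a low line to a high line.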
